A study of Mus musculus with 12 samples.

Results

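Cumulus cells of ClpP-deficient mice were compared between 6 and 3 months of age, using 6 of the 12 libraries of the series. The members are the 3 libraries of ClpP-/- (KO) females at 3 months and the 3 of KO females at 6 months, chosen by their labels. Of the 23997 rows of the expression table, 10317 reached 1 FPKM (fragment counts scaled to transcript length and library size) in at least 3 of these 6 libraries and were tested. The other 6 libraries, 3 from wild-type (WT) females at each age, served to estimate the spread and to test whether a change with age differed between genotypes. All mice were C57BL/6J females given 5 IU of pregnant mare serum gonadotropin, a hormone that stimulates follicle growth, so every group carries that treatment. Cells were taken 44 h later according to the treatment protocol and 48 h later according to the series design. Each library came from 100 cumulus cells of 1 mouse, amplified by Smart-Seq2, a full-length cDNA method for few cells, and read as 75 bp pairs. The labels state the knockout only as ClpP-/-, with no allele or driver, and give the passage as P1.

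ClpP is the proteolytic subunit of a mitochondrial matrix protease, which degrades unfolded or damaged proteins handed to it by the unfoldase ClpX. Cumulus cells are the granulosa cells that surround the oocyte, supply it with products of glycolysis and of cholesterol synthesis, and receive growth factors from it. Loss of mitochondrial protein quality control is known to induce matrix chaperones and the integrated stress response in other settings, and oocyte support declines with reproductive age.

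Sequences are shown for 2 small RNA genes with large differences in this comparison, because their short length bears on how many reads they can take. Snora65 and Snora15 are small nucleolar RNAs of the H/ACA class, which guide pseudouridine formation in ribosomal RNA. Each is encoded within a host gene, Snora65 in Rpl12 at chr2:32963291-32963420 (130 bases, plus strand) and Snora15 in Cct6a at chr5:129794546-129794676 (131 bases, plus strand). The capitals mark the ACA box, which lies 3 bases from the 3′ end.
Snora65: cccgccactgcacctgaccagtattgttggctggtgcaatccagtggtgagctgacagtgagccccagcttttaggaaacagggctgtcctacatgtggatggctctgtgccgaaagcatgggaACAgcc
Snora15: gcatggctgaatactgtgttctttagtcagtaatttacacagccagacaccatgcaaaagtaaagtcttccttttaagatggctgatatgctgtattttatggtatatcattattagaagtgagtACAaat
All sequences and coordinates are from GENCODE M21 on GRCm38.

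Library 3 of each KO age stood apart from the other 2. On the log2(FPKM + 1) scale across genes, library 3 at 6 months correlated at 0.826 and 0.845 with the other 6-month KO libraries but at 0.928 with library 3 at 3 months, while libraries 1 and 2 at 6 months correlated at 0.966. Genes at 1 FPKM or more numbered 9496 to 10861 in the KO libraries, and FPKM sums ran from 627194 to 1366495. A single microRNA entry held 31.5% of the sum in library 3 at 3 months (Mir7686) and 37.2% in library 3 at 6 months (Mir3084), whereas all small RNA entries together held at most 3.65% in the other 4. The 12 granulosa and cumulus markers all passed the filter, and their summed FPKM was 3005 to 8463 at 3 months and 4068 to 7861 at 6 months. Markers of the labelled cell type were thus present in every library. Inha, encoding the inhibin alpha subunit, was at 2590 to 6334 FPKM. Theca and stromal markers (8 of 15 tested) summed to 140, 5.39 and 2130 at 3 months and to 26.6, 155 and 2671 at 6 months. Macrophage and leukocyte markers (10 of 14) summed to 25.6, 4.19 and 291 and then to 19.1, 87.8 and 1623. All 10 had a log2 difference above 0 in KO mice (median 1.65, and 1.35 without library 3 of both ages), though the age groups overlapped for each. In WT mice all 10 also lay above 0 (median 0.82). Luteal markers (7 of 9) summed to 1267, 231 and 9332 and then to 301, 1410 and 14933. In library 3 of each age the luteal sum exceeded that of the granulosa and cumulus markers, 3005 and 4068. Oocyte markers (5 of 15) summed to 5.85, 1.77 and 65.9 and then to 6.42, 8.82 and 260. Library 3 of each age was thus the highest of its group in these 4 lists; no listed marker was at 0 in all 6 libraries. In libraries made from pooled cells, fewer cells of a type and less RNA per cell cannot be told apart. Medians of several lists are therefore also given without library 3 of both ages.

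**Figure D1:**
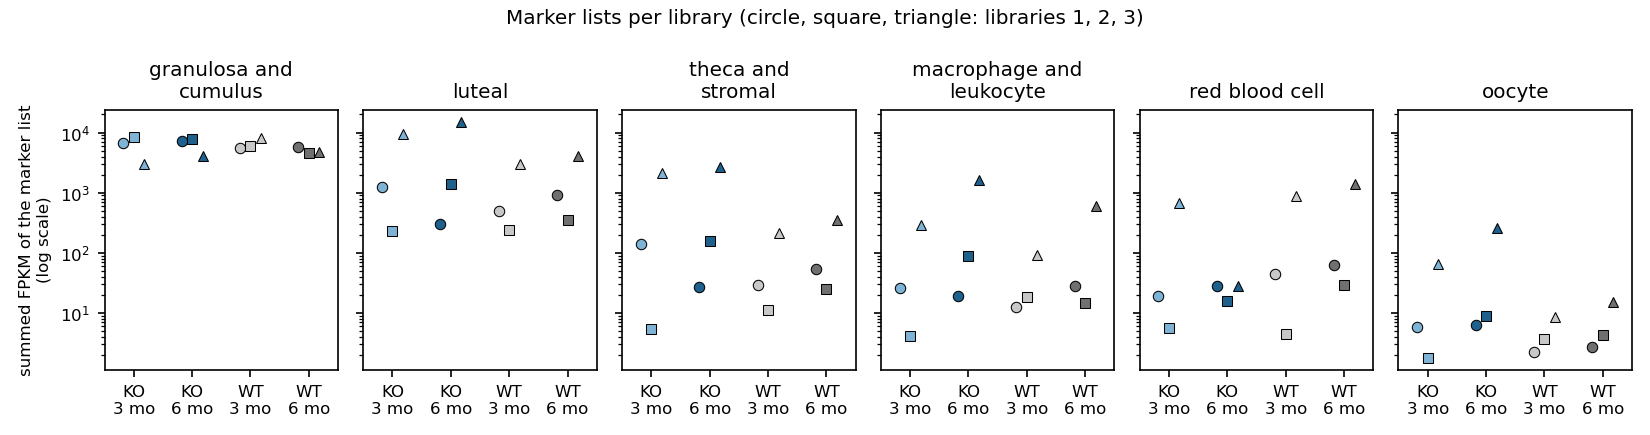
Summed FPKM of 6 marker lists (log axis) in each of the 12 libraries, by group. In KO mice library 3 (triangle) of each age is the highest in the luteal, theca, leukocyte and oocyte lists and the lowest in the granulosa list, with granulosa sums of 3005 and 4068.

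The knockout was visible in every KO library. Clpp (chr17:56990305-56996188) stood at 6.63, 1.10 and 2.07 FPKM in KO mice at 3 months and at 1.63, 0.769 and 6.32 FPKM at 6 months. In WT mice it stood at 88.2, 130 and 146 FPKM at 3 months and at 129, 124 and 114 FPKM at 6 months. The KO values overlapped between ages, with a difference of -0.36 FPKM between the means (exact permutation test, 2-sided, p = 0.7; 3 against 3 cannot go below 0.1).

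With age, 2 of the 10317 genes changed in KO cumulus cells at an adjusted p below 0.05 (limma with Benjamini-Hochberg adjustment over all genes tested), a share of 0.0194%, with 1 higher and 1 lower (0.00969% each).

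Snora65 was the gene that passed the test in the downward direction, and it passed the test of a difference in age change between genotypes. It entered the tested set only through the 3-month KO libraries, so its being tested already required a difference between the ages. It stood at 15.9, 22.3 and 48.4 FPKM in KO mice at 3 months and was listed at 0 in all 3 at 6 months (adjusted p = 4.77e-04). WT mice held 15.3, 24.7 and 23.6 FPKM at 3 months and 26.2, 23.2 and 50.5 FPKM at 6 months. The age change in KO minus that in WT was the only such difference that passed the test (adjusted p = 0.0118; 1 gene of 10317, 0.00969%). That call was lost with no filter on low values (adjusted p = 0.082), with a pseudocount of 5 (0.45), and without library 1 (0.051) or library 2 (0.052) of the KO mice at 6 months. These values rest on very few reads. Over 15 H/ACA entries of 115 to 145 bases, 88.2% of the 93 values above 0 lay within 3% of a whole multiple, 1 to 5, of a step belonging to the entry and the library. The steps were fitted to these same values so as to make this share high at few reads. The share that other values would give was not tested. If a step is 1 read, Snora65 had 2, 1 and 2 reads in KO mice at 3 months, and 1 or 2 reads in each WT library. The step was 7.92 FPKM in library 1 of the KO mice at 3 months and 22.3 FPKM in library 2. Their relative depths, read from the spacing of values under 0.2 FPKM, lay closer together (1 and 0.776), so the read numbers are uncertain. In the KO libraries at 6 months a count of 0 allows up to 3 reads. By these steps that is worth 74.8 to 78.2 FPKM there, which is above every value of Snora65 in the series. Taken singly, a 0 in these libraries therefore does not show a loss of Snora65 at this depth. The 3 zeros together were not tested against the counting error, which the model on FPKM that made the call does not know. The host gene Rpl12 stood at 426, 428 and 560 FPKM and then at 490, 463 and 638 FPKM.

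Snora15 moved the other way on equally few reads. It stood at 8.62, 0 and 0 FPKM in KO mice at 3 months, at 27.1, 28.4 and 56.6 FPKM at 6 months, and at 0 in all 6 WT libraries (adjusted p = 0.28). By the same steps this is 1, 0 and 0 reads against 1, 1 and 2 reads. Its host Cct6a, a subunit of a cytosolic chaperonin, stood at 357, 479 and 251 FPKM and then at 284, 304 and 152 FPKM.

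**Figure D2:**
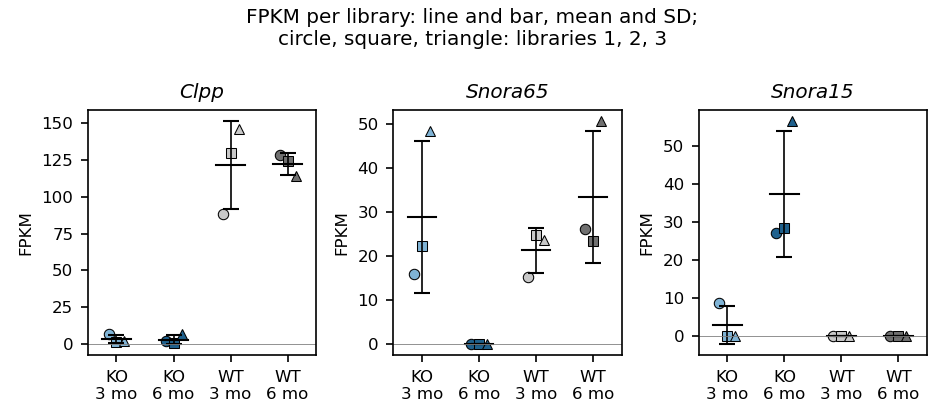
FPKM of Clpp, Snora65 and Snora15 in each library (points), with the mean (line) and SD (bar) of 3 libraries per group. Snora65 lies at 0 only in KO mice at 6 months, where Snora15 lies at 27.1 FPKM or above.

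Below the threshold, the age groups lay apart in 13.1% of genes, counting either direction. With no age difference, a share of 0.1 would on average lie apart by order alone with 3 against 3 libraries. At an unadjusted p below 0.05, 404 genes were higher (3.92%) and 297 lower (2.88%) at 6 months, and in 697 genes (6.76%) all 3 older libraries lay above all 3 younger ones, against 655 genes (6.35%) where they lay below. The 9 genes named on the higher side and the 10 on the lower side are those with the smallest p among genes whose groups do not overlap; none passed (adjusted p 0.63 to 0.72). Their values are therefore a description, chosen from this same comparison.

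Of the genes with higher values at 6 months, a pair encodes histone H4. Hist1h4d stood at 472, 566 and 488 FPKM and then at 1462, 2165 and 845 FPKM (log2 difference 1.45 ± 0.33 SE). Hist1h4c stood at 5.32, 6.00 and 4.24 FPKM and then at 15.8, 26.6 and 29.0 FPKM (1.97 ± 0.42). These copies encode the same protein and can share reads, so how the values divide between them is uncertain. Mdm4, a negative regulator of p53, stood at 5.40, 3.94 and 5.32 FPKM and then at 12.9, 12.3 and 25.4 FPKM (1.54 ± 0.33). Jmjd1c, a putative histone demethylase, stood at 4.39, 3.25 and 3.71 FPKM and then at 12.1, 9.03 and 10.7 FPKM (1.28 ± 0.30). In WT mice Jmjd1c lay between 8.30 and 18.9 FPKM at both ages, so the young KO libraries were the lowest of the 4 groups. Macf1, a large protein that links actin and microtubules, stood at 3.64, 1.70 and 2.87 FPKM and then at 8.98, 9.54 and 8.33 FPKM (1.45 ± 0.31). Its transcript is among the longest, and with the trend along transcript length removed the difference was 0.75. The same step gave 1.21 for Mdm4 and 0.88 for Jmjd1c. Tmsb15l, of the actin-binding thymosin family, stood at 42.2, 46.0 and 48.9 FPKM and then at 99.7, 132 and 101 FPKM (1.25 ± 0.30), beside 91.3 to 199 FPKM in WT mice. Phex, Cntln and H60b completed the set with differences of 1.53 to 1.89. Most of the set also lay higher at 6 months in WT mice, where none of it passed. The WT log2 differences were 1.14 (Macf1), 0.98 (Phex), 0.97 (H60b), 0.87 (Cntln), 0.87 (Hist1h4d) and 0.72 (Mdm4). For Hist1h4c, Jmjd1c and Tmsb15l they were 0.62, 0.26 and -0.19.

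On the lower side the older KO libraries often lay near the WT level. Dyrk3, a kinase that dissolves stress granules, stood at 20.4, 25 and 9.74 FPKM and then at 4.10, 3.4 and 3.75 FPKM (log2 difference -1.94 ± 0.40), beside 2.62 to 8.08 FPKM in WT mice. Hspd1 (chr1:55077835-55088243), the HSP60 chaperonin of the mitochondrial matrix, stood at 499.8, 477 and 474 FPKM and then at 232, 219 and 348 FPKM (-0.89 ± 0.24). WT mice held 219 to 309 FPKM of Hspd1 over both ages, so the 3 young KO libraries stood above the other 9. Gsr, glutathione reductase, stood at 53.1, 55.1 and 43.0 FPKM and then at 23.3, 24.8 and 15 FPKM (-1.24 ± 0.29). Smarcd2, a subunit of SWI/SNF chromatin remodelling complexes, stood at 17.9, 19.4 and 20.0 FPKM and then at 6.78, 6.11 and 8.57 FPKM (-1.31 ± 0.37). In WT mice Smarcd2 lay between 2.95 and 10.7 FPKM. The potassium channel Kcnk1 stood at 6.31, 14 and 12.5 FPKM and then at 1.5, 3.51 and 2.67 FPKM (-1.72 ± 0.39). Rnf34, a ubiquitin ligase, had the narrowest groups, at 43.3, 39.7 and 44.0 FPKM and then at 24.7, 21.2 and 19.0 FPKM (-0.95 ± 0.22). Plscr2, Tuba4a, Dvl2 and Efhd2 completed the set with differences of -1.19 to -1.71. Part of the set also lay lower at 6 months in WT mice, where none of it passed. The WT log2 differences were -0.70 (Efhd2), -0.61 (Gsr), -0.56 (Tuba4a), -0.47 (Smarcd2), -0.40 (Rnf34) and -0.14 (Dyrk3). For Hspd1, Dvl2, Plscr2 and Kcnk1 they were 0.06, 0.16, 0.22 and 0.85.

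**Figure D3:**
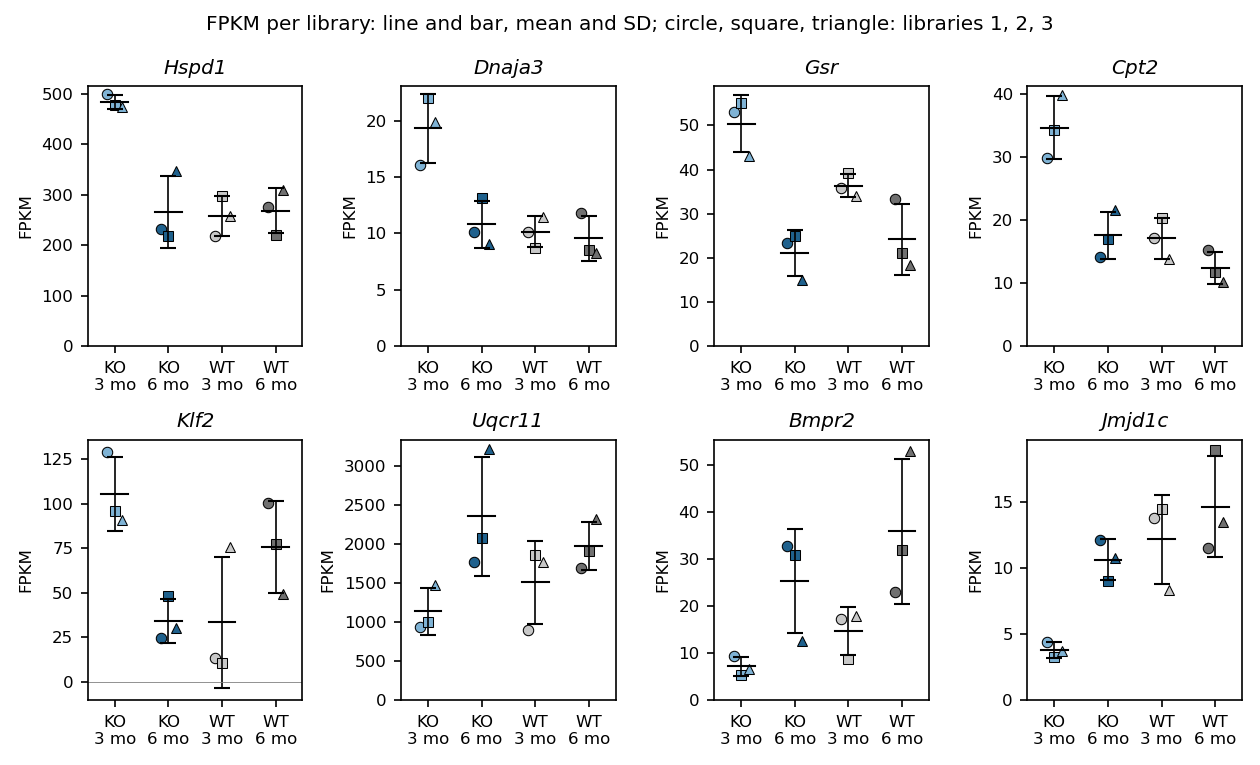
FPKM of 8 genes in each library (points), with the mean (line) and SD (bar) of 3 libraries per group; none passed the adjusted threshold. Hspd1, Dnaja3 and Cpt2 are highest in KO mice at 3 months and near the WT values at 6 months, while Jmjd1c is lowest in KO mice at 3 months.

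Gene lists were read against the whole table, where the median log2 difference was -0.0085 and 49.4% of genes lay above 0; no list member passed the adjusted threshold. Among 25 mitochondrial proteases and chaperones, 21 lay lower at 6 months and 4 higher, with a median of -0.35, and the groups did not overlap in 7 that were lower (6.35% of all genes) and in 2 that were higher (6.76%). The list's median transcript length was 2320 bases. Of all genes of 1592 to 2431 bases, 11.3% lay wholly lower and 1.76% wholly higher. The list's median difference was -0.42 without library 3 of both ages, -0.26 with the trend along transcript length removed, and -0.09 in WT mice. Dnaja3, a matrix co-chaperone, stood at 16.0, 22.0 and 19.9 FPKM and then at 10.2, 13.2 and 9.09 FPKM (-0.79 ± 0.27, adjusted p = 0.72). Trap1, the matrix HSP90, stood at 67.6, 88.0 and 78.3 FPKM and then at 47.1, 44.6 and 54.1 FPKM (-0.67 ± 0.26), beside -0.76 in WT mice and -0.43 in KO mice with the trend along transcript length removed. Clpx, the unfoldase partner of ClpP, stood at 34.9, 57.8 and 25.7 FPKM and then at 28.0, 23.1 and 10.8 FPKM, groups that overlapped (-0.92 ± 0.40). Of these 4 chaperones and partners, Hspd1 and Dnaja3 had WT age differences within 0.10 of 0, but their difference between genotypes did not pass (both adjusted p = 1.00).

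Nuclear genes of the respiratory chain and ATP synthase lay the other way. Of 76 members, 64 were higher and 12 lower at 6 months (median 0.39). In 25 of them the older libraries lay wholly above the younger ones (against 6.76% of all genes), and in 3 wholly below (against 6.35%). The list's mean per library, with each gene centred on its mean over the 12 libraries, overlapped between ages in KO mice. It was -0.253, -0.131 and -0.094 and then -0.133, 0.112 and 0.418. Uqcr11, a small subunit of complex III, stood at 935, 1000 and 1481 FPKM and then at 1766, 2084 and 3216 FPKM (log2 difference 1.03 ± 0.33, adjusted p = 0.72). Ndufa3, of complex I, stood at 1085, 1113 and 1491 FPKM and then at 1670, 2064 and 3383 FPKM (0.90 ± 0.33). Both sets of values were highest in library 3 of each age, and the differences were 0.63 and 0.54 with the trend along transcript length removed. Ndufs1, the largest complex I subunit, lay against the list, at 80.3, 97.4 and 56.2 FPKM and then at 41.9, 46.8 and 31.8 FPKM (-0.92 ± 0.28). The list's transcripts are short (median 891.5 bases), and its median was 0.19 with the length trend removed and 0.28 without library 3 of both ages; in WT mice it was 0.07. The 77 mitochondrial ribosomal proteins split into 39 higher and 38 lower (median 0.01), and the 80 cytosolic ribosomal proteins tested into 53 and 27 (median 0.07, with a sign that differed between settings).

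Among fuel pathways, 19 of 20 glycolysis and lactate genes lay lower at 6 months (median -0.61; -0.40 in WT mice), and 1 of the 20 had groups that did not overlap, near the 6.35% of all genes. Pfkm, muscle-type phosphofructokinase, stood at 6.18, 7.63 and 5.37 FPKM and then at 4.64, 4.47 and 2.73 FPKM (-0.59 ± 0.32, adjusted p = 0.72). Slc2a1, the glucose transporter GLUT1, stood at 25.5, 22.5 and 3.10 FPKM and then at 2.83, 7.32 and 5.41 FPKM, where library 3 at 3 months alone overlapped the older ones. Fatty acid oxidation genes were lower for 15 of 22 (median -0.26, and -0.09 with the trend along transcript length removed). In 4 the older libraries lay wholly below the younger ones (6.35% of all genes). The list's median transcript length was 1981.5 bases, and of all genes of 1592 to 2431 bases 11.3% lay wholly lower. Cpt2, which releases fatty acids for oxidation inside mitochondria, stood at 29.9, 34.3 and 39.7 FPKM and then at 14.1, 17 and 21.5 FPKM (-0.95 ± 0.27, adjusted p = 0.72). Acadvl, which oxidises very long chains, stood at 44.8, 54.0 and 48.0 FPKM and then at 17.9, 23.6 and 26.5 FPKM (-1.09 ± 0.41), and WT mice had the same log2 difference (-1.09). Acad9, its relative that helps assemble complex I, stood at 14.4, 16.5 and 11.5 FPKM and then at 7.40, 7.07 and 1.31 FPKM (-1.48 ± 0.47). Cholesterol synthesis genes were lower for 17 of 23 (median -0.28) and for 23 of 23 without library 3 of both ages (-0.94). That value leans on single libraries, since Mvd stood at 159, 23.6 and 24.5 FPKM and then at 13.7, 18.1 and 39.5 FPKM, and leaving out library 1 of either KO age turned the list's sign. Cell cycle genes were lower for 23 of 26 (median -0.56), none with groups apart. The median was -0.51 without library 3 of both ages and 0.06 without library 3 at 6 months alone. In that library Bub1, a mitotic checkpoint kinase, was at 3.05 FPKM, beside 16.8 to 54.5 FPKM in the other 5 KO libraries.

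The medians of immediate-early genes lay in opposite directions in KO and WT mice. Of 23 such genes, which respond within minutes to hormones and to dissociation, 20 were lower in KO mice at 6 months (median -0.79, and -0.42 without library 3 of both ages), while in WT mice 16 were higher (median 0.58; 50.6% of all genes lay above 0 there). The KO groups did not overlap in 2 of the 23, both lower, beside 6.35% of all genes. The list's mean per library, each gene centred on its mean over the 12 libraries, overlapped between ages in both genotypes. It was -0.33, 0.77 and 0.76 and then -0.59, -0.04 and -0.25 in KO mice. In WT mice it was -0.69, -0.44 and 0.27 and then 0.69, 0.05 and -0.20. Klf2 stood at 129, 95.9 and 91.1 FPKM in KO mice at 3 months and at 24.6, 48.1 and 30.2 FPKM at 6 months (-1.63 ± 0.59, adjusted p = 0.72). In WT mice it stood at 13.4, 10.8 and 75.9 FPKM and then at 100.5, 77.2 and 49.3 FPKM. The difference of the 2 age changes was -3.27 ± 0.83, which did not pass over all genes (adjusted p = 1.00). For 5 of the 23 this difference had an unadjusted p below 0.05, beside 1.89% of all genes. Klf6 stood at 53.9, 85.4 and 61.2 FPKM and then at 39.0, 38.7 and 24.3 FPKM (-0.96 ± 0.44), groups that did not overlap. Targets of the integrated stress response, which slows translation and raises amino acid supply, were lower for 19 of 27 (median -0.28, and -0.14 with the trend along transcript length removed), and in WT mice for 26 of 27 (median -0.96). Sars, a cytosolic aminoacyl-tRNA synthetase, stood at 37.2, 40.8 and 29.8 FPKM and then at 19.0, 20.6 and 21 FPKM (-0.79 ± 0.28). Psat1, of serine synthesis, stood at 28.8, 30.1 and 33.8 FPKM and then at 11.2, 19.0 and 14.5 FPKM (-1.03 ± 0.53), beside -1.39 in WT mice. Nupr1, a stress-induced chromatin regulator, lay against its list in KO mice, at 113, 202 and 190 FPKM and then at 1892, 182 and 481 FPKM (1.75 ± 0.69), groups that overlapped. Its WT values, 678 to 3637 FPKM over both ages, lay above all KO values other than the 1892 FPKM of library 1 at 6 months. Antioxidant genes were higher for 19 of 25 (median 0.11), but the median turned negative without library 1 at 3 months or library 3 at 6 months, down to -0.20 over the settings, and of those with groups apart 1 was higher and 3 lower. Gpx4, which detoxifies lipid peroxides, stood at 914, 1091 and 961 FPKM and then at 1304, 1347 and 1268 FPKM (0.41 ± 0.20, adjusted p = 0.72), opposite to Gsr, and Cat, catalase, stood at 51.7, 63.7 and 55.9 FPKM and then at 39.5, 29.4 and 45.6 FPKM. Endoplasmic reticulum stress genes split into 10 higher and 13 lower (median -0.11, and -0.46 without library 3 of both ages).

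Genes of hormone response and oocyte communication were higher for 17 of 22 at 6 months (median 0.37). The median was 0.30 without library 3 of both ages, but -0.14 without library 3 at 3 months alone. Bmpr2, the type II receptor for the oocyte factors GDF9 and BMP15, stood at 9.46, 5.43 and 6.56 FPKM and then at 32.7, 30.8 and 12.5 FPKM (log2 difference 1.61 ± 0.44, adjusted p = 0.72). With the trend along transcript length removed the difference was 1.08. WT mice showed 8.72 to 18 FPKM and then 22.9 to 53 FPKM (1.22). Tgfbr1, the type I receptor used by GDF9, stood at 2.80, 2.16 and 6.61 FPKM and then at 7.67, 7.75 and 8.18 FPKM (0.98 ± 0.40). Amh, anti-Müllerian hormone, stood at 15.1, 47.3 and 29.9 FPKM and then at 2.89, 1.60 and 32.6 FPKM (-2.05 ± 1.07), with only library 3 high at 6 months. Of 20 genes of cumulus expansion and ovulation, 8 passed the filter, 4 higher and 4 lower (median -0.02), and none had groups apart; without library 3 of both ages 7 were higher and 1 lower (0.24). Steroid synthesis genes split into 6 higher and 8 lower (median -0.05), or 2 and 12 without library 3 of both ages (-0.37). Hsd3b1 stood at 381, 135 and 2562 FPKM and then at 235, 1118 and 5393 FPKM, in the order of the luteal marker sums. It is itself one of the luteal markers and part of those sums, so the shared order is partly built in. The part of luteal or theca cells in that order was not tested.

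Among the remaining lists, interferon response genes were higher for 13 of 16 tested (median 0.36; 0.21 without library 3 of both ages). Bst2, which tethers virus particles to the cell surface, stood at 243, 296 and 214 FPKM and then at 339, 424 and 487 FPKM (0.72 ± 0.28, adjusted p = 0.72). The list's sign turned in 3 settings, among them leaving out library 3 at 6 months, the library with the highest leukocyte sum, and the part of leukocytes was not tested. Senescence genes and their secreted factors were higher for 8 of 11 tested (median 0.32, 0.04 without library 3 of both ages, and -0.23 without library 3 at 6 months alone). Cxcl1, a neutrophil chemokine, stood at 14.8, 15.8 and 70.9 FPKM and then at 814, 119 and 96.1 FPKM (2.99 ± 0.92, adjusted p = 0.72). Its groups did not overlap, and library 1 at 6 months lay far above the other older libraries. Cdkn1a, the cell cycle inhibitor p21, stood at 0.666, 6.67 and 7.97 FPKM and then at 4.97, 15.4 and 12.7 FPKM, groups that overlapped. Targets of p53 and BCL2 family genes split evenly, 8 and 8. The pro-apoptotic Bid stood at 11.7, 25 and 16.5 FPKM and then at 7.69, 7.92 and 7.67 FPKM (-1.03 ± 0.40), and the anti-apoptotic Bcl2l1 at 5.72, 3.99 and 6.43 FPKM and then at 2.02, 3.98 and 1.73 FPKM (-0.87 ± 0.40). Genes of mTOR signalling split into 12 higher and 8 lower (median 0.08, and -0.14 with the length trend removed).

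**Figure D4:**
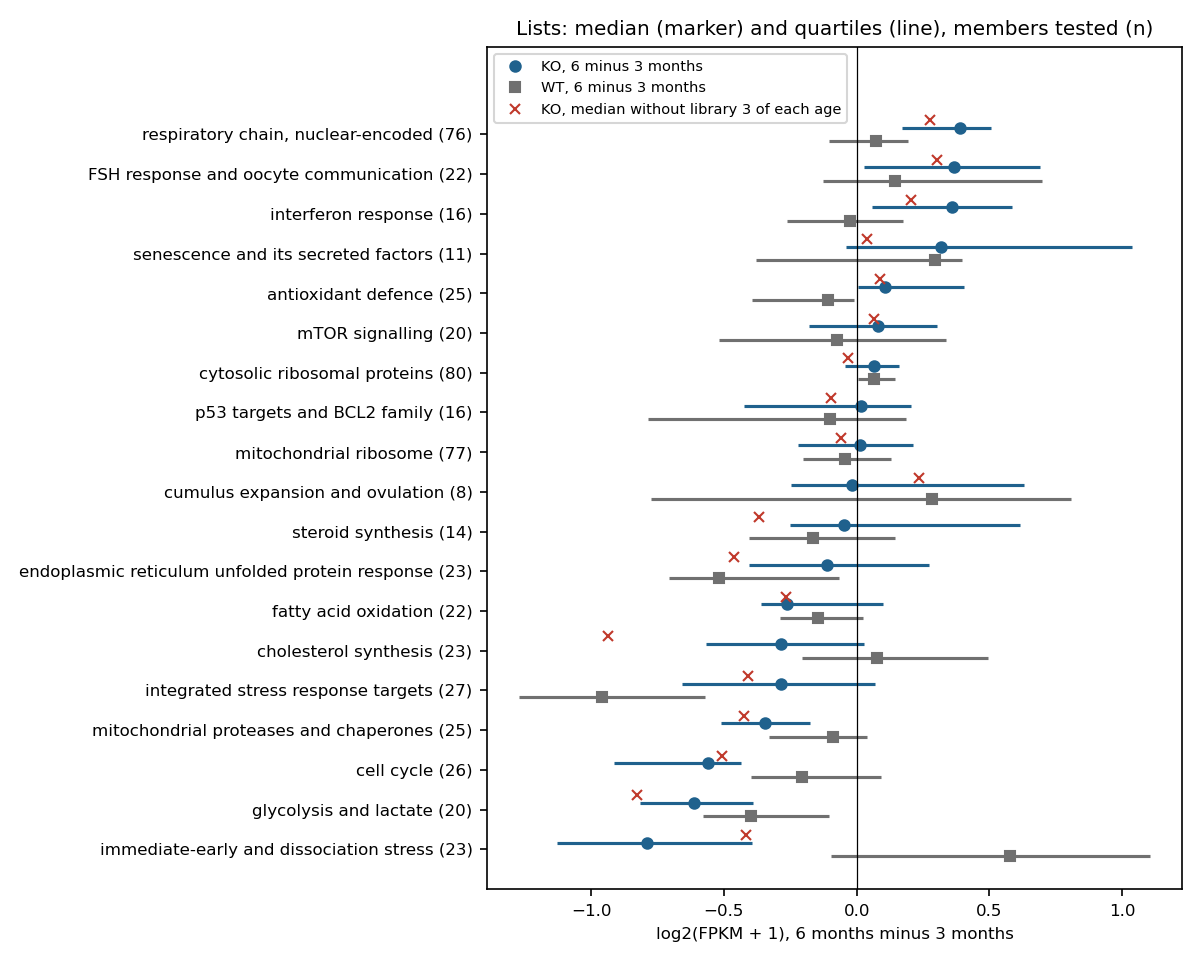
Median (marker) and quartiles (line) of the log2(FPKM + 1) difference, 6 minus 3 months, for the tested members (n) of each list in KO (circles) and WT (squares), with the KO median without library 3 of each age (crosses). Immediate-early genes lie at -0.79 in KO and 0.58 in WT mice, respiratory chain genes at 0.39 and 0.07, and mitochondrial proteases and chaperones at -0.35 and -0.09.

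Transcript length went with the age difference in both genotypes. Lengths were found for 10233 of the tested genes (99.2%), and the genes were divided into 5 equal groups by their longest annotated transcript. The median log2 difference in KO mice was 0.08 for transcripts of 76 to 1591 bases, -0.23 for 1592 to 2431 bases and -0.19 for 2432 to 3372 bases. It was -0.01 for 3374 to 4751 bases and 0.31 for the longest group, 4752 to 123179 bases. The WT medians were 0.01, -0.20, -0.10, 0.05 and 0.29, so in both genotypes, whose libraries are separate, the longest group was highest and the groups of 1592 to 3372 bases were lowest. In the longest group, the older KO libraries lay wholly above the younger ones for 17.4% of genes and wholly below for 2.15%. With this trend removed, the same 2 genes passed, and the genes with an unadjusted p below 0.05 numbered 545 in place of 701 (6.79%). What sets the trend was not tested.

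**Figure D5:**
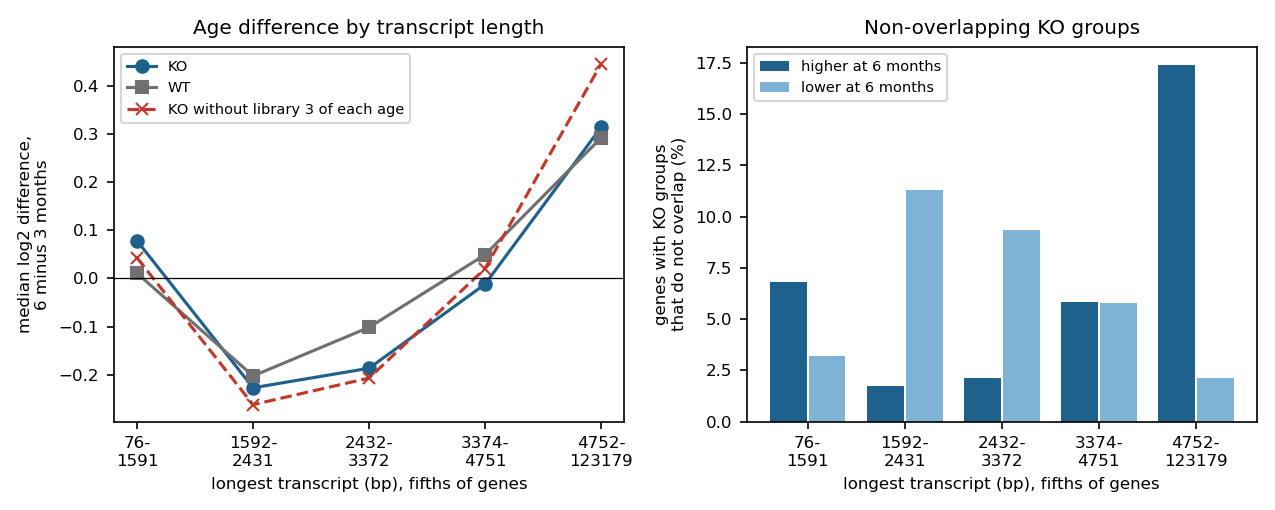
Left, median log2 difference, 6 minus 3 months, in 5 equal groups of genes by longest transcript (bases), for KO, WT and KO without library 3 of each age; right, share of genes (%) whose KO age groups do not overlap, by direction. The group of longest transcripts has a median of 0.31 in KO and 0.29 in WT mice, and that of 1592 to 2431 bases -0.23 and -0.20.

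Across the tested genes, 66.5% had age differences of the same sign in KO and WT mice (6864 genes; Pearson r = 0.389 and Spearman rho = 0.414 across genes, which are not independent replicates). These comparisons share no libraries. In WT mice 1 gene passed (0.00969%), and 786 had an unadjusted p below 0.05 (7.62%). Outside small RNA entries, the genes with the smallest p for a difference between the 2 age changes were Kcnk1, Klf2, Rnf25, Tex14 and Rhob, and none passed (adjusted p = 1.00 for each). Kcnk1 had the smallest p of these, with a KO minus WT difference of -2.57 ± 0.56 on the log2 scale, since WT mice stood at 2.42, 4.88 and 4.31 FPKM and then at 10.8, 7.14 and 5.50 FPKM. Rnf25, a ubiquitin ligase, stood at 10.6, 11.2 and 12.2 FPKM and then at 18.5, 12.7 and 22.0 FPKM in KO mice, against 38.7, 24.4 and 14.5 FPKM and then 10.5, 9.33 and 7.35 FPKM in WT mice (1.90 ± 0.50). For Tex14, a germ cell bridge protein, and Rhob, a small GTPase, the age difference lay in WT mice (1.34 and 1.38) and was -0.34 and -0.37 in KO mice, where the groups overlapped.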

How the data were processed

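RNA of 100 pooled cumulus cells per mouse was sequenced in 12 libraries, 3 mice in each of 4 groups. Per the submitters' processing notes, the genome build was GRCm38 (mm10) and the tools included Cufflinks 1.2.1, Bowtie2 2.1.0 and TopHat2 2.0.10; settings are not given in the sources used here. The authors deposited 1 table of FPKM values per gene, normalized for transcript length and library size, with no counts, so total counts per library are unknown. All 12 value columns matched a sample title, and 0 were left unmatched. Relative depth, read from the spacing of values under 0.2 FPKM, was 0.675 to 1 over the KO libraries.

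Genes with at least 1 FPKM in 3 of the 6 KO libraries were tested on log2(FPKM + 1) with limma 3.58.1 in R 4.3.3. Means of the 4 groups were fitted over all 12 libraries, with empirical Bayes moderation and an intensity trend (8 residual and 3.98 prior degrees of freedom). Adjustment was by Benjamini-Hochberg over 10317 genes, with a threshold of 0.05. A log2 difference on this scale understates the change of low genes. The filter let through 67 genes with no KO library at 1 FPKM in one of the ages (51 at 3 months, 16 at 6 months), which had to differ; Snora65, Eif3j1 and Gm12238 are among them, and no member of a gene list is. The fit was tested on simulated data with normally distributed errors and no counting error, so that test does not cover entries of very few reads. Replicate numbers were not taken to pair mice.

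Members and lists were chosen with earlier results of these data known. Named genes are Clpp; in each direction those passing with groups that do not overlap, filled to 10 by smallest p with a mean of at least 5 FPKM in one age; up to 4 per list by smallest p, of which the text gives a selection; up to 3 per marker list by level; and 5 by smallest p of the genotype difference. Clone, predicted, date-like and small RNA entries were passed over there and named only where 5 or fewer were called; Snora15, the snoRNA hosts, Eif3j1, Eif3j2, Gm12238 and Zfp146 were chosen after their values were seen. Alternatives were other pseudocounts, filters, scalings and moderation, KO libraries alone, a replicate block, each KO library left out and, chosen after seeing the data, removal of a lowess trend along transcript length. One called gene and its results are not reported here. Figures were drawn with matplotlib 3.10.9.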

Additional observations from a re-analysis of the deposited data

Results flagged for a closer look

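Snora65 was singled out because its change with age differed between KO and WT mice in the test of the difference itself. The age difference in KO minus that in WT was -5.32 on the log2(FPKM + 1) scale (limma, adjusted p = 0.0118), which depends on the pseudocount and is no fold, since all 3 KO libraries at 6 months are listed at 0. All 3 KO libraries at 6 months lay below all 9 others, which stood at 1 or 2 steps, each step what 1 read would be worth. Taken singly, the count of 0 in each of the 3 allows more than that, and the 3 zeros together were not tested against the counting error. The call held in 14 of 18 settings and was lost, with adjusted p from 0.051 to 0.45, in the other 4.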

How the results depend on the processing

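Over the 19 settings tried, Snora65 passed in all 19. The KO count was 2 genes, and 4 with the 6 KO libraries alone (Snora65, Gm12238 and Eif3j1 among them). These 3 named genes entered the tested set only through the age where they are high, so they had to differ. Leaving out each KO library gave a count of 2 to 3. The genotype difference passed for 1 gene, for 0 with a pseudocount of 5 or with no filter, and for 0 to 2 when each KO library was left out (0 without library 1 or 2 at 6 months, 2 without library 1 at 3 months). Snora15 passed with a pseudocount of 5 (adjusted p = 0.042) and without library 1 at 3 months (9.28e-05), and Zfp146 without library 3 of both ages. Genes at an unadjusted p below 0.05 numbered 701, but 1341 with array weights, 1039 without library 3 of both ages, 1071 with no filter, 400 at a filter of 5 FPKM, and 487 to 1300 when each KO library was left out. Of the 76 genes followed, 2 changed sign in some setting: Rhob (0.0085 without library 3 of both ages) and Clpp (0.35 without library 1 at 3 months and 0.26 without library 2 at 6 months; -0.76 to 0.35 when each KO library was left out). In all settings run, the medians of proteases and chaperones (-0.42 to -0.26), glycolysis (-1.12 to -0.11) and fatty acid oxidation (-0.42 to -0.07) kept their sign. So did those of immediate-early (-1.20 to -0.42), integrated stress response (-0.45 to -0.14) and respiratory chain genes (0.19 to 0.52). Among marker lists, only that of macrophages and leukocytes did (0.13 to 2.89). The other 20 of 27 lists, marker lists included, did not. Oocyte markers gave no value at 5 FPKM, and KO libraries alone give no genotype difference.

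Same-numbered KO libraries deviated together at r = 0.081, 0.422 and 0.669, and libraries 1 and 2 at 3 months each correlated better with the other number at 6 months (0.355 and 0.542), so the numbers were not taken as pairs. With a replicate block 2 genes passed, the same genes, and 1062 had an unadjusted p below 0.05.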

Other observations

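Eif3j1 and Eif3j2, a pair of near-identical genes for a translation initiation factor subunit, showed all-or-none values. In KO mice Eif3j1 stood at 0.101, 0.091 and 0.110 FPKM at 3 months and at 18.5, 29.9 and 18.9 FPKM at 6 months. Eif3j2 stood at 47.1, 62.7 and 36.5 FPKM and then at 18.6, 0.336 and 11.5 FPKM. With the 6 KO libraries alone Eif3j1 passed the test, but in WT mice the same switch occurred within an age, at 0.099, 20.2 and 0.112 FPKM and then at 24.9, 17.1 and 0.099 FPKM. The notes do not state how reads were divided between the copies. Gm12238 was listed in KO mice at 0 in all 3 younger libraries and stood at 58.4, 40.9 and 20.4 FPKM in the older ones. In WT mice it was at 0, 39.1 and 55.9 FPKM and then at 164, 36.5 and 0 FPKM, so it did not follow age there.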
